A study of Arabidopsis thaliana with 80 samples.

Results

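A set of 42 genes of the 33602 in the table had a daytime difference of one sign in the first collection of rosettes and of the other sign in the next ones. Of these, 37 were higher in the evening than in the morning in the first collection, ex1, and higher in the morning in the following collections, ex2 and ex3, and 5 had the reverse order. The genes were chosen by these measured values. For each gene, the evening minus morning difference of group means was averaged over the 4 accessions, and a gene was kept when it was at least 1 log2 unit in ex1 and at most -1 in the mean of ex2 and ex3, or the other way round. The clock gene PRR9 met these limits (1.48 in ex1 and -3.40 later) but was set aside by name with 4 others, which did not meet them. Differences in ex1 and in the mean of ex2 and ex3 are therefore given below as a description, with no test, and tests are given for the fourth collection, ex4, which the choice did not use, and for contrasts between ex2 and ex3, between accessions and of the level over both times of day.

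Rosettes of Arabidopsis thaliana were grown from seed in pots outdoors in a common garden and profiled by sequencing of polyadenylated RNA. Bon, Moj and Vel are wild accessions collected in the south of Spain, Col-0 is the common laboratory strain, and no mutation or treatment is named for any of them. Each library came from a pool of 5 plants taken between 10:00 and 10:30 or between 15:30 and 16:00, an afternoon window that the labels call evening; roots were discarded, and so were stalks at the reproductive stage. There were 80 libraries in 28 groups, 24 of 3 libraries and 4 of 2, and ex4 held Col-0 and Vel only. The collections ex1 to ex4 are named in the labels as extractions and are not paired there with the vegetative, inductive and reproductive stages, so stage, weather, day length and extraction cannot be told apart between them. All groups came from 1 garden, and p-values measure the spread between pools.

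Values are logarithms to base 2 after an offset of 1, whether they are per gene length is not given in the sources used here, and the table holds no counts, so the depth behind a value is unknown. Between 20428 and 22858 genes lay above 0 in a library, and all 42 genes passed the filter on low values that left 20871 genes for tests. Summed linear values of 5 leaf markers lay between 5352 and 18571 in every library, those of 5 root markers at or below 40.3 and those of 5 flower markers at or below 26.2. In ex4 the leaf marker sums ran from 10505 to 15341 in the morning and from 5352 to 13572 in the evening. Summed values of 3 stem xylem markers were at most 13.0 in ex1 and 7.87 in ex2, reached 116 in ex3, and in ex4 ran from 34.3 to 142 in the morning and from 55.6 to 134 in the evening; their part in the differences below was not tested, and in such bulk tissue fewer cells of a type and less RNA per cell cannot be told apart. The library labelled Moj ex3 morning replicate 1 stood apart. Across genes it was closest to Vel ex3 morning replicate 1 (r = 0.984), while the highest r with its own group was 0.928. It was left out of the choice and of the fits, and with it 36 and 5 genes met the limits in place of 37 and 5.

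Plants time gene expression to the day with a circadian clock, whose morning and evening proteins repress and release one another, and with light, sugar and temperature signals that act on top of it. A gene that peaks near dawn is falling by the afternoon, and one that peaks near dusk is rising. With a sample in the mid-morning and another in the mid-afternoon, the sign of the evening minus morning difference tells which of these readings was higher and does not give the time of the peak. Light signalling factors of the PIF family, the plastid sigma factors and genes of pigment and antioxidant synthesis are known for such daily rhythms in leaves.

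In ex1 the 37 genes had evening minus morning differences from 1.01 to 3.31 log2 units with a median of 1.43, and in the mean of ex2 and ex3 from -3.37 to -1.01 with a median of -1.40. The sign was the same in all 4 accessions in ex1 for 36 of the 37 and in all 8 pairs of ex2 and ex3 for 34. The 5 genes with the reverse order had a median of -1.23 in ex1 (-2.36 to -1.18) and 1.39 later (1.2 to 2.45), and all 12 pairs of group means followed it in 5 of 5. The limit of 1 unit was also reached in ex2 by itself for 30 of the 37 and 5 of the 5, and in ex3 by itself for 28 and 4. Over all genes, 730 were at least 1 unit higher in the evening in ex1 and 154 of them were so later too, while 458 were at least 1 unit lower in ex1 and 124 of them later too.

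Just inside the limits lay AT5G41590, a protein of unknown function (1.68 in ex1 and -1.01 later), and CYP76C6, a cytochrome P450 (1.01 and -1.35). Just outside lay PYL6, an abscisic acid receptor (0.97 and -2.19), and HY5, the bZIP factor that drives light-induced genes (1.46 and -0.96). For the reverse order, EXPA16 (-1.19 and 1.56) and DIP2 (-1.18 and 2.45) lay just inside, and AT4G30350 (-0.98 and 1.08) and AT4G21445 (-0.93 and 0.97) just outside.

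**Figure D1:**
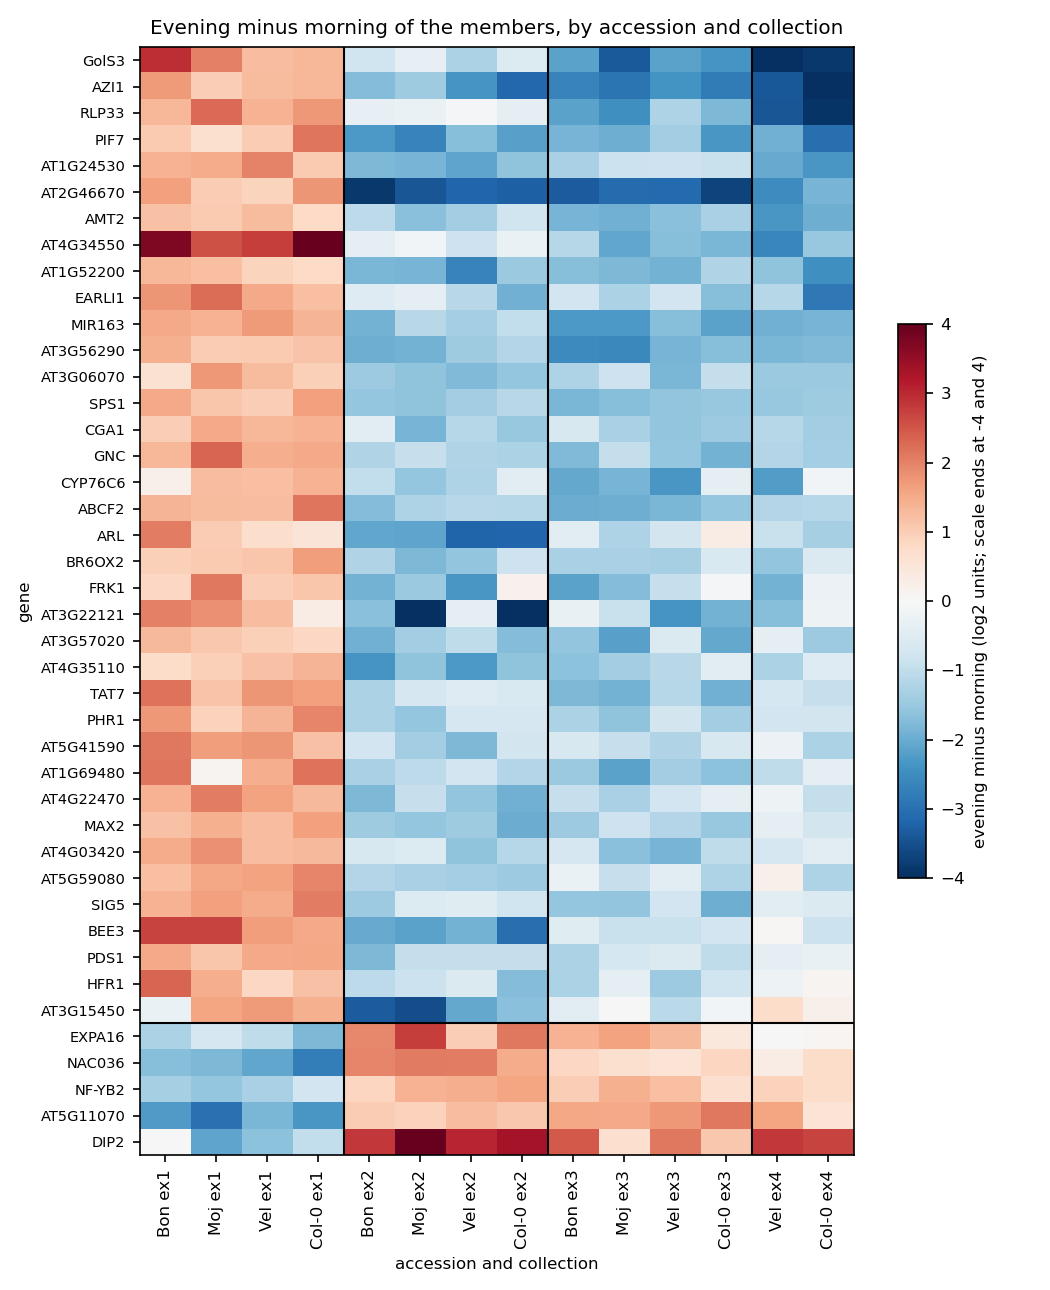
Evening minus morning difference of group means in log2 units (colour, scale ends at -4 and 4) for the 42 genes in rows, by accession and collection in columns; the horizontal line parts the 37 genes higher in the evening in ex1 from the 5 of the reverse order. For 39 of the 42 genes all of the first 4 columns have the opposite sign to all of the next 8, and AT3G15450, FRK1 and ARL have exceptions; the choice fixed the sign of the means. The last 2 columns, Vel and Col-0 in ex4, were not used to choose them.

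The ex4 libraries had no part in the choice of genes. In ex4, 30 of the 37 genes (81.1%) were lower in the evening than in the morning at an adjusted p under 0.05 in limma, against 23.9% of all genes tested, and 0 of the 37 were higher (0 also at an unadjusted p under 0.05), against 25% of all genes tested. The median difference of the 37 was -1.11 log2 units and that of all genes tested 0.00. Of the 5 genes with the reverse order, 4 (80%) were higher in the evening, 0 were lower (0 at an unadjusted p under 0.05), and the median was 0.82. In Col-0 alone 25 of the 37 were lower (15.5% of all genes) and 0 higher (17.3%), and in Vel alone 26 were lower (19.7%) and 0 higher (19.4%), with 0 higher in either at an unadjusted p under 0.05. Both accessions had the sign of ex2 and ex3 for 33 of the 37 genes and 5 of the 5, 1 accession had it for 3 genes, and AT3G15450 had it in neither. In 20 of the 37 genes every ex4 evening library lay below every morning library, which held for 8.92% of all genes tested, and 1 of the 5, DIP2, had every evening library above, which held for 9.55%.

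**Figure D2:**
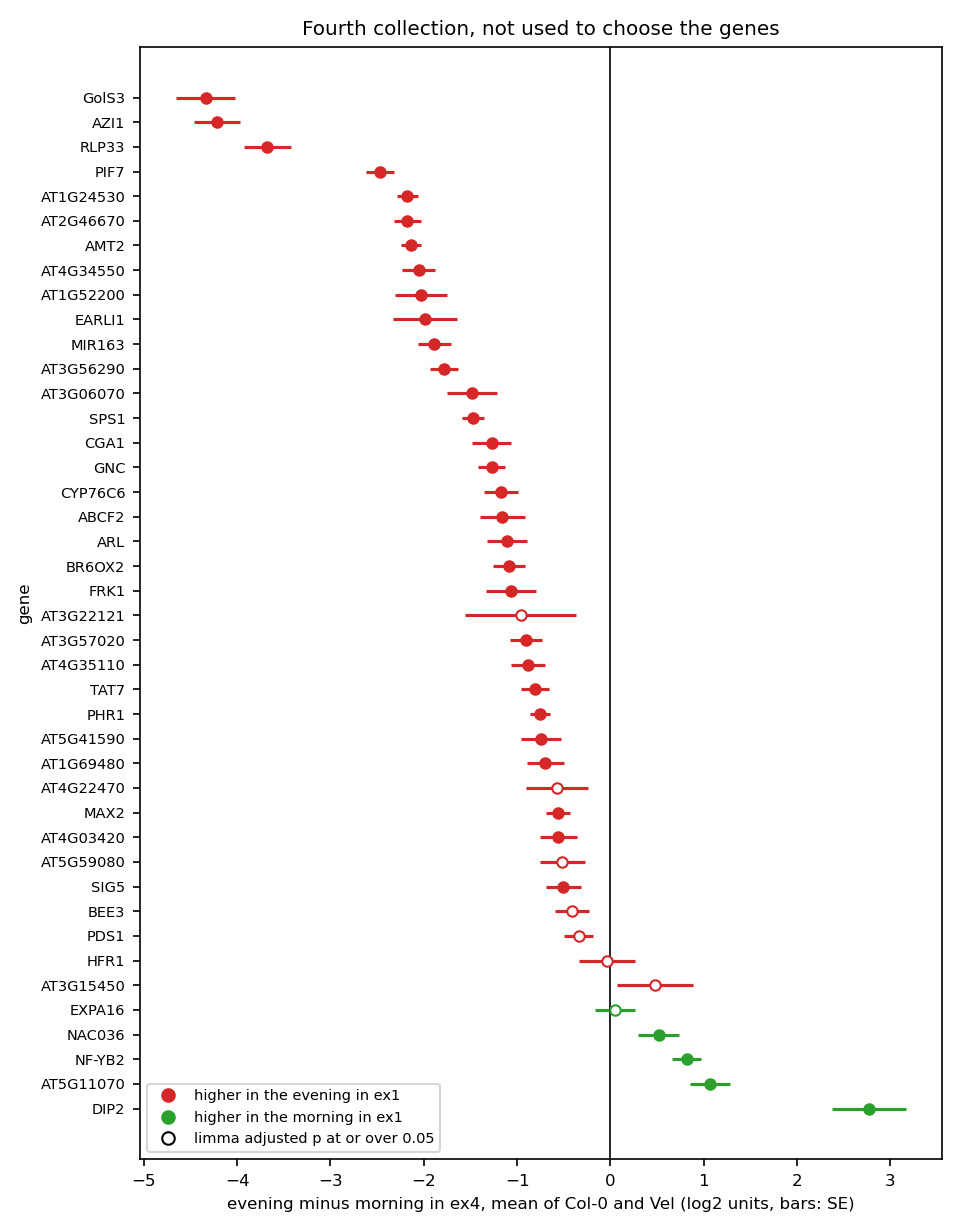
Evening minus morning difference in ex4, mean of Col-0 and Vel, in log2 units with its SE (bars) for the 42 genes, from 6 morning and 5 evening libraries. Filled points passed the limma test; 30 of the 37 red points are filled and lie below 0, and 4 of the 5 green points are filled and lie above 0.

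The 250 bases upstream of each annotated gene start were searched on both strands for short motifs of clock and light factors. The G-box CACGTG, bound by PIF and HY5 type factors, lay in 8 of the 37 (21.6%) and 2 of the 5 (40%), against 7.26% of 20775 promoters of tested genes. The CCA1 binding site AAAAATCT lay in 5 of the 37 (13.5%) and 2 of the 5, against 6.70%, and the evening element AAAATATCT in 1 (2.7%), against 2.53%. The LUX site GATTCG lay in 2 of the 37 (5.41%, against 8.29%), the morning element CCACAC in 1 (2.7%, against 6.36%) and 2 of the 5, and the site II element TGGGCC in 3 of the 37 (8.11%, against 16.3%). The I-box GATAAG lay in 9 of the 37 (24.3%), against 12.4%, and the ACGT core, which every G-box also holds, in 23 (62.2%), against 44.3%. The telo box AAACCCTA lay in 1 of the 37 (2.7%, against 3.79%), the DRE core CCGAC in 7 (18.9%, against 12.9%), the W-box TTGACC in 6 (16.2%, against 12.2%) and TATAAA in 22 (59.5%, against 45.8%). In the 5 genes, the evening element, the LUX site and the W-box lay in 0. The site II element, the telo box and the DRE core lay in 1 of the 5, the I-box in 2, and the ACGT core and TATAAA in 3. The G-box holders among the 37 included GolS3, PHR1, AT1G69480, SPS1, AT4G03420, AT4G35110 and ABCF2, and among the 5 DIP2 and NF-YB2; PIF7, GNC, AZI1 and MIR163 had none in this window. The last 150 bases before the start are shown for 4 of the G-box holders, to let the motif be seen in place, with the G-box and the CCA1 site in capitals, from RefSeq TAIR10.1. The end of the NF-YB2 window overlaps an exon of a non-coding gene on the other strand. The windows lie at chr1:29537483-29537632 (minus strand), chr1:4209000-4209149 (minus), chr1:3019489-3019638 (plus) and chr5:19309077-19309226 (plus).
SPS1: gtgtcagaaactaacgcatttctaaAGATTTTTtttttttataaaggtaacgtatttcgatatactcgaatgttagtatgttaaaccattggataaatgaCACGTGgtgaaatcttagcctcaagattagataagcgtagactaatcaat
PHR1: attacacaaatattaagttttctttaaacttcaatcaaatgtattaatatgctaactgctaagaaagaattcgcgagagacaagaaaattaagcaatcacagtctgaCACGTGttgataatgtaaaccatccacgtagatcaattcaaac
GolS3: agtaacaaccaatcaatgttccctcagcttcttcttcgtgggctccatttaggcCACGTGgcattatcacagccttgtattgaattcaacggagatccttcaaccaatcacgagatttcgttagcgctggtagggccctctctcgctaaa
NF-YB2: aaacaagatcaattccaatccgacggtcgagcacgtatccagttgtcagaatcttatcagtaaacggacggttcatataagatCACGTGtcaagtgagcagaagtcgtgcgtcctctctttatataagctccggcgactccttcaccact
SPS1 holds both motifs, with the CCA1 site read on the other strand, and the rest hold the G-box. A match of letters describes the sequence and says nothing of which factor was bound.

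Several of the 37 genes are regulators of light responses and of the chloroplast. PIF7 (AT5G61270, chr5:24638491-24640765 on the minus strand), a phytochrome-interacting bHLH factor that drives growth in shade, had higher evening values in ex1 and lower evening values after it, with similar morning values. PIF7 read 4.81 to 6.09 with a median of 5.2 over the 12 ex1 morning libraries and 5.96 to 7.39 with a median of 6.41 over the 10 ex1 evening libraries. Later, ex2 mornings held 4.46 to 6.23 with a median of 5.55 and ex2 evenings 2.82 to 4.2 with a median of 3.2, while ex3 mornings held 4.74 to 6.53 with a median of 5.54 and ex3 evenings 3.17 to 3.99 with a median of 3.61. The ex1 evening libraries were the higher ones with a slight overlap, and those of ex2 and ex3 lay below all mornings. From ex1 to the mean of ex2 and ex3, the mean morning value differed by 0.20 log2 units and the mean evening value by -3.05. The ex4 values were 5.85, 5.99 and 5.87 for Col-0 mornings, 3.02 and 2.75 for Col-0 evenings, 3.9, 4.18 and 4.4 for Vel mornings and 2.29, 2.11 and 2.31 for Vel evenings. All 5 evening libraries lay below the 6 morning libraries, and the difference was -2.47 log2 units (SE 0.15, adjusted p = 1.55e-20, limma). HFR1, an atypical bHLH protein that holds PIF factors back, had differences of 1.45, -1.06 and -0.97 in ex1, ex2 and ex3, and in ex4 its evening libraries overlapped the morning ones, with a difference of -0.04 log2 units (SE 0.30, adjusted p = 0.939, limma).

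GNC (AT5G56860, chr5:22989216-22991530 on the minus strand) and CGA1 (AT4G26150) are a pair of GATA factors that promote chlorophyll synthesis and chloroplast growth. GNC read 3.55 to 4.71 with a median of 4.35 over the 12 ex1 morning libraries and 5.55 to 6.23 with a median of 5.89 over the 10 ex1 evening libraries. The 2 ranges did not touch, evening above morning. Its ex2 libraries ran from 4.17 to 5.39 with a median of 4.61 in the morning and from 3.08 to 3.87 with a median of 3.48 in the evening, and its ex3 libraries from 4.18 to 5.42 with a median of 4.61 and from 2.3 to 3.62 with a median of 3.14. In both collections every evening library lay below every morning library. Col-0 rosettes of ex4 gave 4.39, 5.1 and 4.53 in the morning and 3.26 and 3.35 in the evening, where Vel rosettes gave 4.88, 4.56 and 4.73 and 3.5, 3.61 and 3.53. The GNC difference in ex4 was -1.27 log2 units (SE 0.14, adjusted p = 6.58e-11, limma), and CGA1 fell too, with -1.27 log2 units (SE 0.21, adjusted p = 1.36e-06, limma), with no overlap of its libraries. SIG5 (AT5G24120), a nuclear-encoded sigma factor that directs the plastid RNA polymerase to light-responsive promoters, read 5.86 to 6.72 with a median of 6.27 in ex1 mornings and 7.58 to 8.34 with a median of 7.89 in ex1 evenings. Its ex4 libraries overlapped between the times of day, and the difference of -0.50 log2 units (SE 0.19, adjusted p = 0.0223, limma) was lost when the ex4 libraries were fitted alone (adjusted p = 0.0805) or when Vel morning replicate 3, Vel evening replicate 1, Col-0 morning replicate 2 or Col-0 evening replicate 1 was left out (adjusted p from 0.0616 to 0.203). Neither Col-0 alone (-0.57, adjusted p = 0.115, limma) nor Vel alone (-0.44, adjusted p = 0.165, limma) passed for SIG5. Of the other 5 sigma factors, named after their values were seen, SIG1 had differences of 0.08, -1.16, -1.25 and -0.96 from ex1 to ex4, and SIG4 0.24, 0.79, 1.41 and 1.55. By limma, 0 of these 5 were higher and 1 lower in the ex1 evening (1 higher at an unadjusted p under 0.05). The numbers higher and lower were 2 and 2 in ex2, 3 and 1 in ex3 and 2 and 1 in ex4. Their medians from ex1 to ex4 were 0.08, 0.14, 0.32 and 0.25.

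PHR1 here is the photolyase gene AT1G12370, whose enzyme uses light to repair cyclobutane pyrimidine dimers left by ultraviolet light, and not the phosphate regulator of that name. PHR1 read 3.56 to 4.4 with a median of 3.8 over the 12 ex1 morning libraries and 5.19 to 5.86 with a median of 5.37 over the 10 ex1 evening libraries. Every ex1 evening library lay above every morning library. In ex4 the evening values fell by 0.76 log2 units (SE 0.11, adjusted p = 3.55e-08, limma), again with no overlap. CRY3, a cryptochrome related to photolyases and not among the 42, had 1.07 in ex1 and -0.17, -0.33 and -0.44 in ex2, ex3 and ex4. It was 1 of 2 photolyase relatives tested beside PHR1. Of these 2, 1 was higher in the evening in ex1 by limma, and 2 were lower in each later collection. Their medians from ex1 to ex4 were 0.605, -0.524, -0.446 and -0.585.

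**Figure D3:**
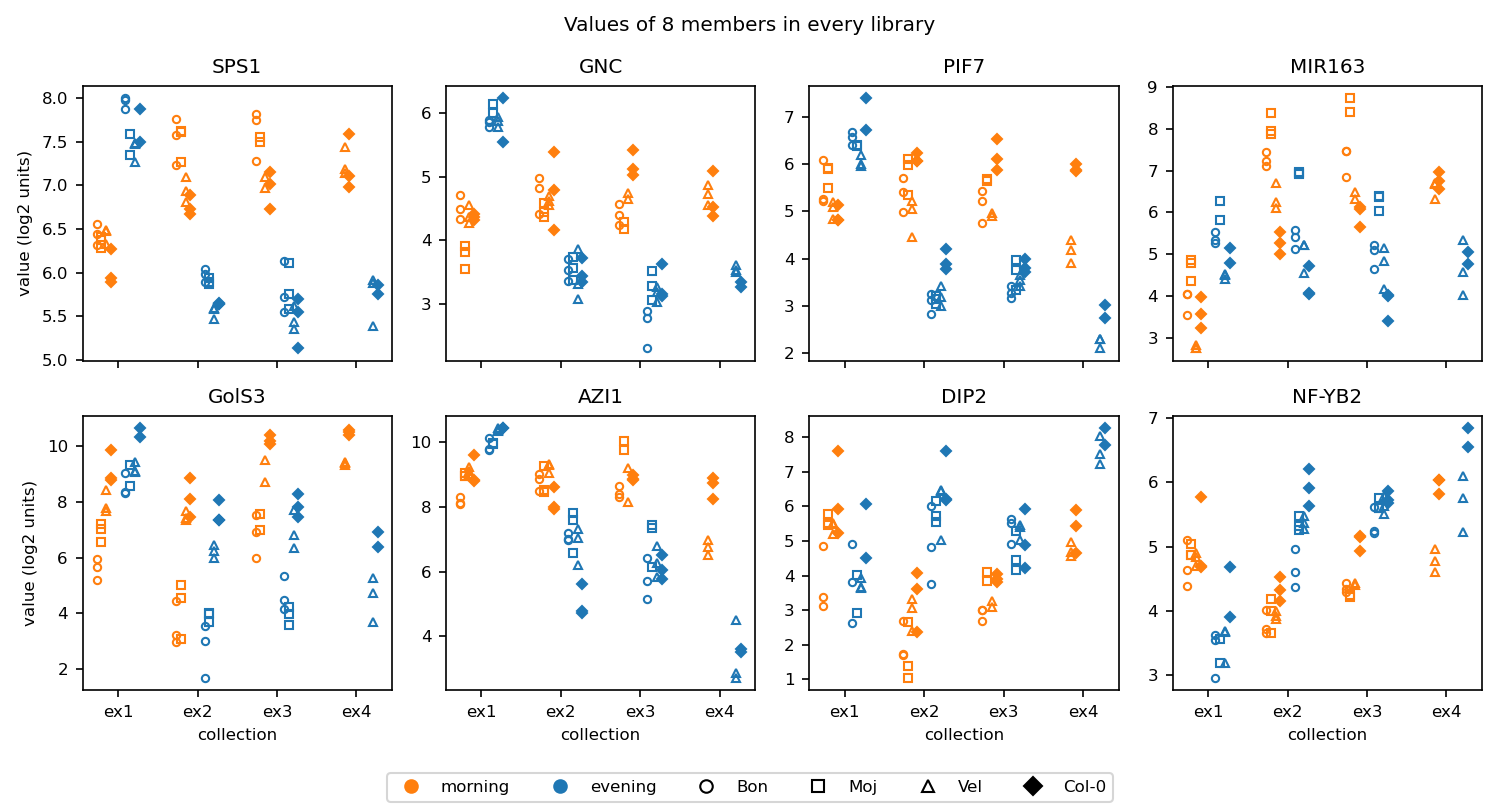
Values in log2 units of 8 of the genes in every library, by collection, with morning in orange, evening in blue and a marker shape per accession; Moj ex3 morning replicate 1 is not drawn. In SPS1, GNC and PIF7 the blue points lie above the orange ones in ex1, or nearly so, and below them in ex2, ex3 and ex4, and in DIP2 the ex4 evening points lie above the morning ones.

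A group of 3 enzymes of plastid quinone and tocopherol synthesis were among the 37. TAT7 (AT5G53970) is a tyrosine aminotransferase, PDS1 (AT1G06570) is 4-hydroxyphenylpyruvate dioxygenase, which makes homogentisate, the head group of plastoquinone and of vitamin E, and SPS1 (AT1G78510, chr1:29535060-29537482 on the minus strand) makes the solanesyl side chain. SPS1 read 5.89 to 6.55 with a median of 6.35 over the 12 ex1 morning libraries and 7.27 to 8.0 with a median of 7.54 over the 10 ex1 evening libraries. Over the 12 and 12 libraries of ex2 it held 6.67 to 7.76 with a median of 7.16 in the morning and 5.47 to 6.04 with a median of 5.76 in the evening, and over the 10 and 12 of ex3 6.73 to 7.81 with a median of 7.21 and 5.13 to 6.13 with a median of 5.6. The times of day were apart in each of these collections, with the evening high in ex1 and low in ex2 and ex3. In ex4, Col-0 libraries read 6.98, 7.59 and 7.11 in the morning and 5.76 and 5.86 in the evening, and Vel libraries 7.15, 7.19 and 7.44 in the morning and 5.39, 5.91 and 5.88 in the evening. The SPS1 difference in ex4 was -1.47 log2 units (SE 0.12, adjusted p = 2.92e-16, limma). TAT7 fell too, by 0.81 log2 units (adjusted p = 1.28e-05, limma). PDS1 did not pass, at -0.34 log2 units (SE 0.16, adjusted p = 0.071, limma), although without Vel ex4 evening replicate 2 it did (-0.48, adjusted p = 0.0103).

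Other enzymes of the pathway, listed after values had been seen, did not all follow. SPS2, the second solanesyl diphosphate synthase, had 1.11 in ex1, -0.05 in ex2, -1.14 in ex3 and -1.03 in ex4 (adjusted p = 2.1e-11 in ex4, limma). VTE1, tocopherol cyclase, was higher in the evening in each collection, with 1.11, 1.86, 1.66 and 1.43. VTE2, which joins homogentisate to the phytyl chain of tocopherol, had 0.10, 1.32, 0.86 and 1.14, and HST, which joins it to the solanesyl chain, had 0.12, 1.0, 0.05 and -0.18. Of the 7 enzymes beside TAT7, PDS1 and SPS1, 3 were higher and 2 lower in the evening in ex4 by the limma test, with a median of -0.15.

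**Figure D4:**
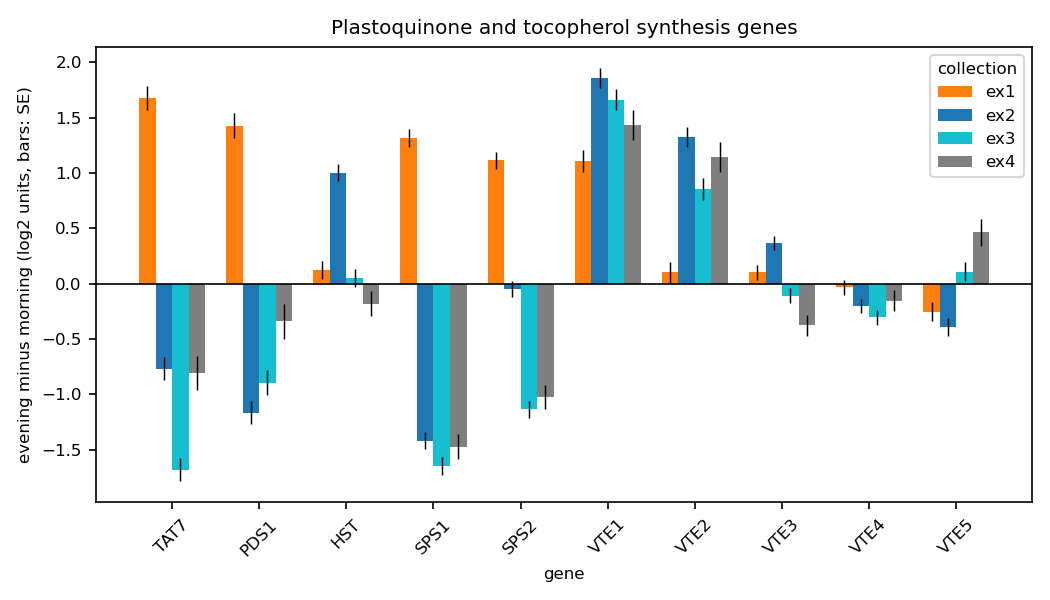
Evening minus morning difference in log2 units with its SE (bars) for 10 genes of plastoquinone and tocopherol synthesis in ex1 to ex4; ex4 is the mean of Col-0 and Vel, and the others are means of 4 accessions. The bars of TAT7, PDS1 and SPS1 change sign after ex1, those of VTE1 lie above 0 in each collection, and TAT7, PDS1 and SPS1 were chosen for that pattern.

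Hormone genes formed another group of 4. BEE3 (AT1G73830), a bHLH factor induced by brassinosteroids, read 0.47 to 1.26 with a median of 1.0 over the 12 ex1 morning libraries and 2.2 to 3.83 with a median of 3.22 over the 10 ex1 evening libraries. No evening library of ex1 overlapped a morning one. Later, ex2 mornings held 1.88 to 4.31 with a median of 2.71 and ex2 evenings 0.32 to 0.96 with a median of 0.55, while ex3 mornings held 1.65 to 2.88 with a median of 2.0 and ex3 evenings 0.47 to 2.43 with a median of 1.15. In ex2 the evening libraries were all lower, and in ex3 and ex4 they overlapped the morning ones. In ex4 BEE3 did not pass, at -0.41 log2 units (SE 0.18, adjusted p = 0.0604, limma); Col-0 fell (-0.87, adjusted p = 0.011, limma) and Vel had 0.05. BR6OX2 (AT3G30180), which catalyses the last steps to brassinolide, fell by 1.08 log2 units in the ex4 evening (SE 0.17, adjusted p = 2.87e-07, limma), and its libraries did not overlap. Col-0 alone did not pass for BR6OX2 (-0.59, adjusted p = 0.0635, limma). ARL, an ARGOS-like protein of cell expansion, fell by 1.11 log2 units (adjusted p = 2.45e-05, limma), with overlap. MAX2 (AT2G42620), the F-box protein of strigolactone and karrikin signalling, read 2.78 to 3.86 with a median of 3.38 in ex1 mornings and 4.53 to 5.14 with a median of 4.65 in ex1 evenings, and was lower in the ex4 evening with no overlap and a difference of -0.56 log2 units (SE 0.13, adjusted p = 0.000255, limma). Vel alone did not pass for MAX2 (-0.41, adjusted p = 0.0566, limma). BEE1, a close relative of BEE3 and not among the 42, had 3.97 in ex1 and -1.34, -0.57 and -1.4 later, while BEE2 had -0.33, -0.17, 0.17 and 0.06. CPD, a brassinosteroid synthesis enzyme, was lower in the evening in each collection (-0.60, -1.29, -1.42 and -1.13), and DET2 was higher (0.20, 0.38, 0.78 and 0.54). Of the 7 tested brassinosteroid genes looked up beside BR6OX2 and BEE3, 4 were higher and 3 lower in ex1 by limma, and 2 were higher and 3 lower in ex4.

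Genes named for cold and defence responses, grouped here after their values were seen, had ex4 differences of widely unequal size. GolS3 (AT1G09350, chr1:3019639-3021443 on the plus strand), the cold-induced galactinol synthase that starts raffinose synthesis, read 5.21 to 9.88 with a median of 7.44 over the 12 ex1 morning libraries and 8.31 to 10.65 with a median of 9.09 over the 10 ex1 evening libraries. Its ex2 libraries ran from 2.98 to 8.87 with a median of 6.19 in the morning and from 1.68 to 8.06 with a median of 5.0 in the evening, and its ex3 libraries from 5.98 to 10.42 with a median of 8.15 and from 3.58 to 8.28 with a median of 5.84. These ranges overlapped, and within each accession the mean evening value was higher in ex1 and lower in ex2 and ex3. The ex4 values were 10.5, 10.42 and 10.6 for Col-0 mornings, 6.91 and 6.39 for Col-0 evenings, 9.43, 9.31 and 9.38 for Vel mornings and 3.68, 5.28 and 4.72 for Vel evenings. Every evening library lay below every morning library, with a difference of -4.33 log2 units (SE 0.32, adjusted p = 2.12e-17, limma). Of the other galactinol synthases, looked up after values had been seen, GolS1 had 0.46 in ex1, -3.05 in ex2, -2.94 in ex3 and -2.34 in ex4, and GolS2 -1.12, -0.20, -1.16 and 0.27.

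AZI1 (AT4G12470, chr4:7401087-7401951 on the minus strand) and EARLI1 (AT4G12480, chr4:7406065-7406994 on the minus strand) are neighbours that encode lipid-transfer-like proteins, AZI1 known from systemic immunity and EARLI1 from cold and early aluminium responses. AZI1 read 8.09 to 9.6 with a median of 8.95 over the 12 ex1 morning libraries and 9.76 to 10.42 with a median of 10.23 over the 10 ex1 evening libraries. Over the 12 and 12 libraries of ex2 it held 7.93 to 9.32 with a median of 8.73 in the morning and 4.74 to 7.82 with a median of 6.98 in the evening, and over the 10 and 12 of ex3 8.16 to 10.02 with a median of 8.85 and 5.17 to 7.44 with a median of 6.2. Its evening libraries were all higher in ex1 and all lower in ex2 and ex3. Col-0 rosettes of ex4 gave 8.9, 8.23 and 8.73 in the morning and 3.62 and 3.52 in the evening, where Vel rosettes gave 6.5, 6.76 and 6.98 and 2.72, 2.87 and 4.5. AZI1 fell by 4.22 log2 units in the ex4 evening (SE 0.25, adjusted p = 5.34e-21, limma), and EARLI1 by 1.99 (adjusted p = 2.06e-06) with overlap. The neighbouring relatives AT4G12490 and AT4G12500 had 0.99 and 1.17 in ex1 and -0.26 and -0.51 in ex4. RLP33 (AT3G05660), a receptor-like protein, fell by 3.68 log2 units in the ex4 evening (SE 0.25, adjusted p = 1.12e-18, limma). FRK1 (AT2G19190), a receptor-like kinase induced by flagellin and much used as an immune marker, fell by 1.07 (adjusted p = 0.000717), with -0.23 in Col-0 and -1.9 in Vel. AT4G22470, a lipid-transfer family gene, did not pass, at -0.57 log2 units (SE 0.33, adjusted p = 0.15, limma), but with an offset of 0.1 in place of 1 it did (-1.31, adjusted p = 0.0204).

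MIR163 (AT1G66725, chr1:24884066-24884396 on the plus strand) encodes miR163, which directs cleavage of transcripts of small-molecule methyltransferases such as PXMT1 and FAMT. The mature sequence is given to show which small RNA the locus makes; the seed, bases 2 to 8, is in capitals, the sequence lies at chr1:24884359-24884382 on the plus strand of TAIR10.1 and is from RefSeq.
miR163: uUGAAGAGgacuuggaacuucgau
The library values are of the polyadenylated primary transcript, not of this small RNA. MIR163 read 2.75 to 4.85 with a median of 3.77 over the 12 ex1 morning libraries and 4.41 to 6.28 with a median of 5.2 over the 10 ex1 evening libraries. Later, ex2 mornings held 5.0 to 8.38 with a median of 6.91 and ex2 evenings 4.04 to 6.96 with a median of 5.21, while ex3 mornings held 5.65 to 8.73 with a median of 6.67 and ex3 evenings 3.41 to 6.4 with a median of 4.96. Times of day overlapped in each of these collections. From ex1 to ex2 and ex3 the mean value differed by 3.17 in the morning and by -0.05 in the evening. In ex4, Col-0 libraries read 6.57, 6.96 and 6.76 in the morning and 4.77 and 5.04 in the evening, and Vel libraries 6.32, 6.69 and 6.67 in the morning and 4.01, 4.57 and 5.35 in the evening. MIR163 fell by 1.89 log2 units in the ex4 evening (SE 0.18, adjusted p = 3.77e-13, limma) and its libraries did not overlap. PXMT1 had differences of -0.24, -3.5, -2.21 and -1.61 from ex1 to ex4, and FAMT -0.05, 0.88, 0.00 and 0.49.

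Transport genes and genes of less certain role made up the rest. AMT2 (AT2G38290), a high-affinity ammonium transporter, read 3.22 to 4.1 with a median of 3.79 over the 12 ex1 morning libraries and 4.35 to 5.43 with a median of 4.79 over the 10 ex1 evening libraries. The ex4 values were 4.77, 4.66 and 4.95 for Col-0 mornings, 2.79 and 2.92 for Col-0 evenings, 5.82, 6.0 and 5.97 for Vel mornings and 3.39, 3.69 and 3.71 for Vel evenings. AMT2 was higher in each ex1 evening library than in any morning one and lower in each ex4 evening library, with an ex4 difference of -2.14 log2 units (SE 0.11, adjusted p = 1.48e-23, limma). AMT1;1, the main leaf ammonium transporter, had -0.05, 1.2, 0.74 and 0.21 from ex1 to ex4, and AMT1;2 -0.68, 0.04, -1.93 and -2.09. AT1G24530, a WD40 repeat protein, read 1.93 to 2.89 with a median of 2.35 over the 12 ex1 morning libraries and 3.43 to 4.73 with a median of 3.83 over the 10 ex1 evening libraries. Col-0 rosettes of ex4 gave 4.47, 4.63 and 4.6 in the morning and 2.17 and 2.31 in the evening, where Vel rosettes gave 4.82, 4.81 and 4.86 and 2.56, 3.19 and 2.68. It had the smallest adjusted p of the 42 genes in ex4, at -2.18 log2 units (SE 0.11, adjusted p = 8.08e-24, limma). AT4G34550, an F-box protein, had the largest ex1 difference, 3.31, and then -0.39 in ex2, -1.7 in ex3 and -2.06 log2 units (SE 0.18, adjusted p = 1.29e-14, limma) in ex4. AT1G52200 (a PLAC8 family protein), AT3G56290 (annotated as a potassium transporter), AT3G06070 (uncharacterized), ABCF2 (an ABC family protein), AT3G57020 (annotated in a phosphotriesterase family), AT4G35110 and AT5G41590 (members of protein families with no settled role), AT1G69480 (an EXS domain protein), AT4G03420 (of unknown function) and CYP76C6 also fell in the ex4 evening, by limma estimates from -2.03 to -0.56. Some of these passed in 1 accession and not in the other, though the difference between accessions passed for CYP76C6 and for none of the rest named here. AT5G41590 had -1.26 in Col-0 and -0.22 in Vel, and AT3G57020 -1.44 and -0.37, where Col-0 passed. AT1G69480 had -0.38 in Col-0 and -1.02 in Vel, AT4G35110 -0.51 and -1.26, and AT4G03420 -0.45 and -0.67, where Vel passed. The AT4G03420 call was lost without Vel ex4 evening replicate 2 (adjusted p = 0.0570) or Col-0 ex4 evening replicate 1 (adjusted p = 0.109).

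Among the genes that did not pass in ex4, the uncharacterized AT5G59080 had -0.51 log2 units (adjusted p = 0.0697, limma), with -1.23 in Col-0 and 0.21 in Vel. AT3G15450, annotated as an aluminium-induced protein, had 0.48 (adjusted p = 0.35). Its differences over the 4 accessions were 1.11, -2.65 and -0.40 in ex1, ex2 and ex3, with most of the later mean from ex2. Leaving out 1 library brought a call for AT5G59080 (without Vel evening replicate 2, Col-0 morning replicate 1 or Col-0 evening replicate 2, with -0.62, -0.61 and -0.70), for BEE3 (without Vel morning replicate 1, Vel evening replicate 1, Col-0 morning replicate 3 or Col-0 evening replicate 2, with -0.53, -0.47, -0.50 and -0.53) and for AT4G22470 (without Vel evening replicate 1, with -0.85). AT3G22121, a non-coding RNA, had -0.96 (adjusted p = 0.18), with values from 0.25 to 2.72 in the ex4 morning and from 0.00 to 0.65 in the evening. With an offset of 0.1 in place of 1, AT3G22121 passed (-2.35, adjusted p = 0.0121, limma).

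Some values cannot be assigned to 1 gene. The kit does not mark strand, and 15 of the 42 genes overlap an annotated gene, 14 of them on the opposite strand. AT3G22121 lies opposite CWLP, a cell wall protein gene whose differences were 0.66, -1.64, -1.45 and -2.68 from ex1 to ex4, so their reads cannot be told apart. NF-YB2 overlaps NUDT2, whose differences of 0.80, -0.83, -1.0 and -1.3 had the opposite signs. Further opposite genes with a higher mean value than the member were KEU at PHR1 (5.04 against 3.35) and AT2G19180 at FRK1 (4.87 against 3.47). The same held for AT4G34555 at AT4G34550 (4.1 against 2.94) and NRPB4 at ABCF2 (5.39 against 2.33). PDS1, SPS1 and PIF7 lie opposite genes with lower mean values than their own (2.415, 0.23 and 0.72). AT2G46670, a CCT motif gene, is 99.5% identical to PRR9 over 874 bases. Its differences from ex1 to ex4 were 1.33, -3.43, -3.31 and -2.18, where PRR9 had 1.48, -3.21, -3.58 and -2.14, and its reads may be those of PRR9. CYP76C6 is 91.0% identical to CYP76C5 over 1249 bases.

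The 5 genes with the reverse order were higher in the morning in ex1 and in the evening later. DIP2 (AT5G03210, chr5:762604-763480 on the minus strand), annotated as an E3 ubiquitin ligase, read 3.12 to 7.59 with a median of 5.47 over the 12 ex1 morning libraries and 2.62 to 6.06 with a median of 3.88 over the 10 ex1 evening libraries. Its ex2 libraries ran from 1.04 to 4.06 with a median of 2.52 in the morning and from 3.75 to 7.61 with a median of 6.07 in the evening, and its ex3 libraries from 2.68 to 4.1 with a median of 3.54 and from 4.17 to 5.93 with a median of 5.16. In ex4, Col-0 libraries read 5.88, 4.66 and 5.42 in the morning and 7.77 and 8.26 in the evening, and Vel libraries 4.98, 4.55 and 4.69 in the morning and 7.21, 8.03 and 7.51 in the evening. The ex1 and ex2 ranges overlapped, and the ex3 and ex4 ranges were apart, with every evening library above every morning library and an ex4 difference of 2.77 log2 units (SE 0.39, adjusted p = 3.97e-08, limma). NF-YB2 (AT5G47640, chr5:19309227-19310272 on the plus strand), a subunit of the nuclear factor Y complex that acts with CONSTANS to promote flowering in long days, read 4.38 to 5.77 with a median of 4.85 over the 12 ex1 morning libraries and 2.96 to 4.69 with a median of 3.6 over the 10 ex1 evening libraries. Over the 12 and 12 libraries of ex2 it held 3.65 to 4.52 with a median of 4.0 in the morning and 4.37 to 6.2 with a median of 5.35 in the evening, and over the 10 and 12 of ex3 4.21 to 5.17 with a median of 4.42 and 5.21 to 5.87 with a median of 5.62. The ex4 values were 6.04, 5.81 and 6.04 for Col-0 mornings, 6.54 and 6.84 for Col-0 evenings, 4.78, 4.61 and 4.96 for Vel mornings and 5.22, 6.1 and 5.75 for Vel evenings. The times of day overlapped in ex1 and ex2, and every ex3 evening library was higher. The evening values were higher within each accession in ex4, by 0.82 log2 units (SE 0.15, adjusted p = 1.05e-05, limma), while Col-0 morning values overlapped Vel evening values. NF-YB3, its close relative, had -0.40, -0.85, 0.10 and 0.50.

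NAC036 (AT2G17040), a NAC transcription factor, read 2.75 to 4.56 with a median of 3.38 over the 12 ex1 morning libraries and 0.68 to 1.84 with a median of 1.36 over the 10 ex1 evening libraries. Every morning library was higher. Later, ex2 mornings held 3.15 to 3.99 with a median of 3.53 and ex2 evenings 4.62 to 5.91 with a median of 5.52, while ex3 mornings held 1.75 to 4.58 with a median of 4.01 and ex3 evenings 2.53 to 5.26 with a median of 4.84. In ex4 it rose in the evening by 0.52 log2 units (SE 0.22, adjusted p = 0.0455, limma), a call that was lost when every gene above 0 was tested (adjusted p = 0.0640), with an offset of 0.1 (0.0695), when the ex4 libraries were fitted alone (0.165) and without 7 of the 11 ex4 libraries in turn, namely Vel morning replicates 1 and 2, Vel evening replicates 2 and 3, Col-0 morning replicates 1 and 2 and Col-0 evening replicate 1 (0.0544 to 0.311). Neither Col-0 alone (0.73, adjusted p = 0.0828, limma) nor Vel alone (0.31, adjusted p = 0.432, limma) passed for NAC036. AT5G11070, an uncharacterized protein, read 4.21 to 5.91 with a median of 5.27 over the 12 ex1 morning libraries and 2.33 to 3.52 with a median of 2.91 over the 10 ex1 evening libraries. In ex4 AT5G11070 was higher in the evening by 1.06 log2 units (SE 0.22, adjusted p = 4.29e-05, limma). Col-0 alone did not pass (0.55, adjusted p = 0.195, limma). Its Col-0 libraries read 1.25, 2.7 and 1.57 in the morning and 2.18 and 2.61 in the evening. Vel libraries read 1.38, 1.64 and 2.09 in the morning and 3.46, 2.95 and 3.42 in the evening. EXPA16 (AT3G55500), an expansin that loosens cell walls, had -1.19, 1.95 and 1.18 in ex1, ex2 and ex3 and did not pass in ex4, at 0.05 log2 units (SE 0.21, adjusted p = 0.872, limma), where all its values were at or below 1.48.

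The parts of the morning and the evening values in the reversal were unequal from gene to gene. The counts of higher and lower values here are of signs, with no limit on size. For 29 of the 37 genes the mean morning value was higher and the mean evening value lower in ex2 and ex3 than in ex1. Both were higher for 5 genes, CYP76C6, AT1G52200, FRK1, RLP33 and EARLI1, and both lower for 3, GolS3, PHR1 and AT3G22121. Some of the 29 had a change near 0 at 1 time of day. The morning change was 0.01 in AZI1 and 0.05 in SIG5, and the evening change -0.05 in MIR163 and -0.06 in ARL. The evening value had moved further than the morning value in 24 of the 37 genes. For the reverse order, the morning was lower and the evening higher in 4 of the 5, and both were higher in NAC036. These counts describe the values that chose the genes and have no test. The level over both times of day in the same libraries was not used in the choice, and by limma it rose from ex1 to ex2 and ex3 in 13 of the 37 (35.1%, against 41.8% of all genes tested) and fell in 21 (56.8%, against 44.5%), with a median of -0.46 against -0.02 for all genes. AT1G52200 rose by 2.84 log2 units and FRK1 by 2.41, and AT3G22121 and GolS3 had level changes of -3.26 and -2.07, with adjusted p from 1.25e-29 to 1.11e-17 in limma. Of the 5, NAC036 (1.86) and NF-YB2 (0.60) rose and 3 fell, with AT5G11070 at -1.54. The DIP2 change of -0.44 did not pass without Col-0 ex1 evening replicate 3 (adjusted p = 0.0628, limma).

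**Figure D5:**
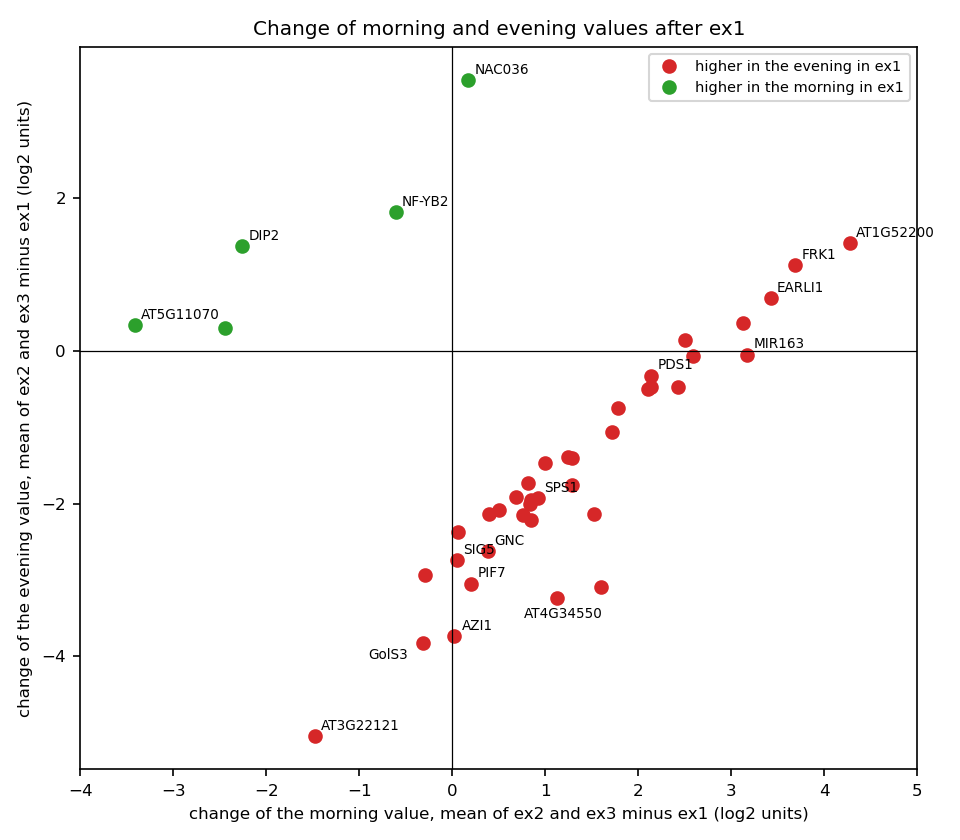
Change of the mean morning value (horizontal axis) and of the mean evening value (vertical axis) from ex1 to the mean of ex2 and ex3, in log2 units, 1 point per gene. Of the 37 red points, 29 lie to the lower right of the crossing lines, 5 to the upper right and 3 to the lower left.

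Between ex2 and ex3 the daytime difference of many of the genes was unequal in size. Of the 37, 8 had a higher difference in ex3 than in ex2 (21.6%, against 17.9% of all genes tested) and 11 a lower one (29.7%, against 18.4%) by limma, the first share near that of all genes, and the median was -0.01 against 0.00. Differences nearer 0 in ex3 were those of AT3G15450 (changed by 2.25, adjusted p = 1.07e-05, limma), ARL (2.12), BEE3 (1.5) and AT3G22121 (1.75, not passed without Moj ex3 morning replicate 3, adjusted p = 0.0584). Further below 0 in ex3 were GolS3 (-1.77, adjusted p = 6.86e-06, limma), RLP33 (-1.66) and AT4G34550 (-1.3). Of the 5 genes with the reverse order, 3 had a smaller evening excess in ex3, with DIP2 at -1.74, NAC036 at -1.17 and EXPA16 at -0.77, and AT5G11070 a larger one (0.67). With Moj ex3 morning replicate 1 in the fit, 9 of the 37 were higher and 9 lower, and without Moj ex3 morning replicate 3, 5 were higher.

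Accessions differed in the size of the daytime difference for part of the genes, as they did for part of all genes tested. In ex1 the limma F test between the 4 accessions passed for 6 of the 37 (16.2%, against 5.06% of all genes tested) and for 0 of the 5 (1 at an unadjusted p under 0.05). With Moj ex3 morning replicate 1 in the fit 4 passed, and without Col-0 ex1 morning replicate 3 there were 10 of the 37 and 1 of the 5. AT1G69480 (F = 11, adjusted p = 0.000879, limma) had differences of 2.15 in Bon, 1.45 in Vel and 2.17 in Col-0 but 0.12 in Moj. The Moj ex1 morning libraries read 4.11, 4.43 and 4.36, above the other accessions' morning libraries, and its evening libraries 3.76 and 5.07. AT4G34550 (F = 9.49, adjusted p = 0.00267) had 3.74 in Bon and 4.21 in Col-0 and 2.54 in Moj and 2.77 in Vel. PIF7 (F = 8.43, adjusted p = 0.00597) had 2.13 in Col-0 and 0.63 to 1.03 in the natural accessions.

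Over ex2 and ex3 the F test passed for 17 of the 37 (45.9%, against 35.7% of all genes tested; 13 with Moj ex3 morning replicate 1) and for 1 of the 5, EXPA16, which was lost without Moj ex3 morning replicate 3. CYP76C6 (F = 13.4, adjusted p = 2.63e-05, limma) differed in Col-0 by -0.44 (ex2) and -0.37 (ex3) between evening and morning, where Vel had -1.24 and -2.34. FRK1 (F = 13.3, adjusted p = 2.91e-05) had 0.16 and -0.06 in Col-0 and -1.89 and -2.15 in Bon. PHR1 (F = 12.0, adjusted p = 7.08e-05) had -1.55 and -1.6 in Moj and -0.68 and -0.72 in Vel. The level over ex1 to ex3 differed between accessions in 36 of the 37 and 5 of the 5, against 89% of all genes tested. The processing notes name TAIR10 as the reference, and the effect of sequence differences between accessions on these values was not tested.

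In ex4 the difference between Vel and Col-0 was tested directly. Of the 37 genes, 1 had a higher daytime difference in Vel (2.7%, against 1.43% of all genes tested) and 1 a lower one (2.7%, against 1.63%), and of the 5 genes 0 did (1 at an unadjusted p under 0.05). CYP76C6 read 2.98, 2.88 and 3.05 in Col-0 mornings and 3.04 and 2.65 in Col-0 evenings. In Vel it read 3.3, 2.98 and 3.44 in the morning and 0.39, 1.15 and 1.5 in the evening. Col-0 values overlapped and Vel evening values were all lower, a difference between the accessions of -2.1 log2 units (SE 0.37, adjusted p = 0.000144, limma). For PIF7 the Vel difference was -1.92 and the Col-0 difference -3.02, higher in Vel by 1.1 log2 units (SE 0.30, adjusted p = 0.0275, limma). The number with a higher difference in Vel was 0 with Moj ex3 morning replicate 1 in the fit or without Vel morning replicate 1 or either Col-0 evening library, 2 without Vel evening replicate 1 and 3 without Vel evening replicate 2, and the number with a lower one was 2 without Vel morning replicate 3 or Vel evening replicate 3.

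Counts over lists of related genes are given for comparison, without the chosen genes, and a count of 0 was also 0 at an unadjusted p under 0.05. Among all genes tested the limma test called 22.1% higher and 25.7% lower in the evening in ex1, 33.7% and 33.1% in ex2, 29.9% and 28.7% in ex3, and the medians were -0.03, 0.00 and 0.00 log2 units. The 13 tested genes of growth and shade responses beside PIF7 and HFR1 gave the following numbers higher and lower in the evening: 6 and 5 in ex1, 0 and 10 in ex2, 1 and 5 in ex3 and 1 and 2 in ex4, with medians of -0.18, -0.44, -0.07 and -0.05. PIF4, another growth-promoting PIF factor in that list, had 2.58, -0.15, 1.09 and 2.37 from ex1 to ex4. For the 11 cold response genes beside GolS3, the numbers higher and lower were 6 and 5 in ex1, 5 and 3 in ex2, 2 and 4 in ex3 and 1 and 7 in ex4, with medians of 0.60, 0.31, -0.04 and -1.08. Among 12 genes of ultraviolet and flavonoid responses, none of them chosen, they were 11 and 0 in ex1, 8 and 4 in ex2, 5 and 5 in ex3 and 4 and 6 in ex4, with medians of 1.08, 1.0, 0.12 and -0.51. Morning clock genes, 14 with PRR9 among them, gave 5 and 9 in ex1, 1 and 12 in ex2, 1 and 13 in ex3 and 2 and 10 in ex4, with medians of -0.42, -3.44, -3.4 and -2.09. LHY, a core repressor of the clock that peaks near dawn, had -0.49, -6.85, -6.73 and -6.76. Evening clock genes, also 14, gave 13 and 1 in ex1, 14 and 0 in ex2, 11 and 0 in ex3 and 10 and 0 in ex4, with medians of 1.72, 1.64, 1.3 and 1.16. For 8 tested heat response genes, none of them chosen, the counts were 3 and 2 in ex1 and 2 and 2 in ex2. In ex3 they were 1 and 4, and in ex4 6 and 1. Heat medians from ex1 to ex4 were 0.26, 0.13, -0.20 and 1.83. Further lists were counted and are not given here.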

How the data were processed

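The deposited table gives log2 values for 33602 genes in 80 libraries. Per the submitters' processing notes the authors' tools were FastQC, HISAT2 and StringTie, with TAIR10; versions and settings are not given in the sources used here. Values were used as deposited, where the plan had allowed for a linear unit. That they are logarithms with an offset of 1, normalized to like quantiles, was read from the numbers (column totals from 65882 to 66017), so a change shared by most genes cannot be seen. Depth is unknown, since no counts are given, and no interval that needs it is printed.

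A gene was tested when 3 or more libraries held a value of 1 or more, which left 20871. One limma model (version 3.58.1, R 4.3.3) with a mean per group and a variance trend was fitted to 79 libraries, without Moj ex3 morning replicate 1, and left 51 residual degrees of freedom. All p-values are two-sided, with Benjamini-Hochberg adjustment over all genes tested and a threshold of 0.05. Groups followed the labels. The members and lists were chosen with earlier results of these data known. In each direction the text names the 8 genes with the largest smaller of the ex1 and later differences, up to 4 with the smallest adjusted p of each sign in ex4, 3 per accession F test, the 2 largest level changes of each sign, list members and the genes nearest the limits; other members and the related genes outside the set were named by function after their values were seen.

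Gene models and sequences are those of RefSeq TAIR10.1, whose identifiers matched all 42 genes, and near copies were sought with BLAST+ 2.17.0 (at least 80% identity over 100 bases). The promoter sequence of 1 further gene is not reported here. Python 3.11.15 served for tables, with pandas 2.3.3 and numpy 2.4.6, and matplotlib 3.10.9 for plots. The fits were tested on simulated data. Alternatives were other limits, offsets, filters and libraries, no trend, a replicate block and each library left out in turn.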

Additional observations from a re-analysis of the deposited data

Results flagged for a closer look

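These values were singled out because the evening minus morning difference differed between accessions by a direct test in limma. In ex4 the difference of CYP76C6 was lower in Vel than in Col-0 by -2.10 log2 units (adjusted p = 0.000144), and that of PIF7 was higher in Vel by 1.1 (adjusted p = 0.0275). In ex1 the F test between 4 accessions passed for AT1G69480 (F = 11), AT4G34550 (F = 9.49), PIF7 (F = 8.43) and PHR1 (F = 8.25, adjusted p = 0.00683), where Moj had 0.92 and Col-0 1.96. It passed also for AT1G24530 (F = 6.23, adjusted p = 0.0283), with 1.99 in Vel and 1.06 in Col-0, and for BEE3 (F = 6.05, adjusted p = 0.0316), with 2.71 in Bon and 1.52 in Col-0. No explanation was tested.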

How the results depend on the processing

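The number of genes depends on the limits. With a limit of 0.75 log2 units 81 and 23 genes met it (evening first and morning first), with 1.5 there were 2 and 0, with an offset of 0.1 in place of 1 there were 68 and 21, and with the limit in ex2 and in ex3 each 21 and 4. With group medians there were 34 and 5, and with each library left out in turn 33 to 38 and 4 to 6. The ex4 count of 30 lower genes was 29 to 32 under the other filter, offset, trend and library settings, and 28 to 32 with each library left out. The 4 of 5 became 2 in Col-0 alone, 3 in Vel alone, with every gene above 0 tested, with an offset of 0.1 and with ex4 libraries only, and 3 to 4 with a library left out. The Vel against Col-0 counts in ex4 were 0 for higher with an offset of 0.1 and with Moj ex3 morning replicate 1, and with a library left out 0 to 3 higher and 1 to 2 lower. The change between ex2 and ex3 passed for 5 to 9 higher and 10 to 13 lower genes with a library left out. Accession F tests gave 4 to 10 and 0 to 1 in ex1 and 14 to 18 and 0 to 1 in ex2 and ex3, and 0 of the 5 with an offset of 0.1. Level counts were 12 to 13 higher and 21 to 22 lower, and 2 higher and 2 to 3 lower of the 5; the accession level passed for 34 to 37.

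With the replicate block the ex4 counts were 30 and 4, and none of the 42 genes changed its call in ex4, between ex2 and ex3 or in level. Whether same-numbered morning and evening libraries are paired cannot be told from these values. Of 38 such pairs, 12 had deviations correlated over 0.1 (r from -0.269 to 0.405, median 0.052). In ex1 r ran from 0.002 to 0.383, and in ex3 from -0.269 to 0.121.

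Signs turned for the following differences, none of which had passed its test. HFR1 in ex4 had 0.12 in Col-0 alone and -0.22 to 0.23 with a library left out. BEE3 and AT5G59080 in ex4 had 0.048 and 0.206 in Vel alone. EXPA16 in ex4 ran from -0.012 to 0.13. Between ex2 and ex3, HFR1 ran from -0.053 to 0.20, AT3G57020 from -0.17 to 0.017 with 0.049 when Moj ex3 morning replicate 1 was kept, and CGA1 from -0.076 to 0.08 with 0.035. The AT5G41590 level change was 0.086 with an offset of 0.1. The causes were not tested.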
